A study of Sus scrofa with 2 samples.

Results

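The hepatocyte nuclear factors HNF4A, HNF4G, ONECUT1 (also known as HNF6) and FOXA2 (also known as HNF3 beta) were followed through the exocrine and endocrine nuclei of the pig pancreas. These 4 genes were taken by symbol from the 31908 genes of the count matrices, and all 4 have a row there. The data are single-nucleus RNA sequencing of 1 piece of pancreas from 1 wild-type (WT) Bama pig and 1 from a PIGinH11 Bama pig, which carries the knock-ins GIPRdn, hIAPP and PNPLA3 I148M. Promoters active in beta cells or in liver drive these transgenes, so exocrine cells are not the cells meant to express them. Both animals were 18 months old, had eaten a control diet up to 6 months of age and then received a high-fat and high-sucrose diet (HFHSD) for 12 months, so neither library represents a normally fed pig. Each group had 1 library, and no test between the groups was possible. The intervals given are exact 95% intervals for counting error only, and the spread between animals was not measured.

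The name of the family comes from liver, where these DNA-binding proteins were first identified, although each of its branches has a different protein fold. HNF4A and HNF4G are nuclear receptors that bind DNA as dimers. ONECUT1 carries a cut domain and a homeodomain, and FOXA2 is a forkhead protein that can open closed chromatin for other factors. In the developing pancreas, FOXA2 and ONECUT1 act upstream of PDX1, and ONECUT1 is needed for the formation of ducts and of endocrine precursors. In the adult gland, HNF4A is known for its part in acinar and beta cells, and mutations in human HNF4A cause a monogenic form of diabetes.

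In the Sscrofa11.1 annotation of RefSeq, HNF4A (ENSSSCG00000007371) lies at chr17:46783772-46847505 and FOXA2 (ENSSSCG00000007114) on the same chromosome at chr17:29997397-30001704. HNF4G (ENSSSCG00000034242) lies at chr4:60505388-60641052 and ONECUT1 (ENSSSCG00000004616) at chr1:118913400-118958140. The annotated gene spans run from 4308 bp for FOXA2 to 135665 bp for HNF4G. HNF4A overlaps the long non-coding RNA gene LOC102159476 and HNF4G overlaps LOC106510047, neither of which has a row of its own, and the strand setting of the counting is not given in the sources used here. UMI counts are not scaled for gene length, so levels are compared below between classes of nuclei and not between genes.

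After filters and doublet removal, 11854 WT nuclei and 13126 PIGinH11 nuclei remained, with a median of 3019 UMIs (unique molecular identifiers, 1 per captured RNA molecule) per nucleus in WT and 1167.5 in PIGinH11. Nuclei were clustered without the genes described here and named by markers. The acinar-like class held 8449 WT and 9118 PIGinH11 nuclei, the ductal-like class 2148 and 2184, and the endocrine-like class 271 and 461. A cluster of 353 WT and 158 PIGinH11 nuclei, led by CELA2A, CST3 and PRSS2, met too few markers and stayed without a class. All 8 acinar, all 10 ductal and all 11 endocrine markers measured were higher in their own class than in the class set against it, in both libraries. The same markers gave the classes their names, so this is a description and not a separate check. Within the endocrine-like class, 76 WT and 121 PIGinH11 nuclei were alpha-like, 132 and 135 beta-like, 29 and 65 delta-like, and 7 and 45 gamma-like. All alpha, delta and gamma markers measured were higher in their own type than in acinar-like nuclei. Of 10 beta markers, 8 were so in WT and 9 in PIGinH11. A further 27 and 95 endocrine-like nuclei were matched best by acinar markers and stayed without a type. Endothelial-like, stellate-like, mural-like, immune-like and Schwann-like nuclei, 633 in WT and 1204 in PIGinH11, were pooled as the non-epithelial classes, and their levels served as a measure of free RNA. Where these cells express a gene themselves, this measure is too high. The libraries shared 60 cell barcodes.

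HNF4A, the nuclear receptor best known from hepatocytes, was found in acinar-like and endocrine-like nuclei at about the same level and in ductal-like nuclei at a lower one. Its level in acinar-like nuclei was 155 CPM in WT (UMIs of the gene per 1000000 UMIs of the class, 95% interval 151 to 159.6, from 4692 UMIs) and 119.5 CPM in PIGinH11 (114.2 to 125, from 1862 UMIs). In ductal-like nuclei it was 69.8 CPM in WT and 46.7 CPM in PIGinH11. The acinar-like level was thus 2.22-fold the ductal-like one in WT and 2.56-fold in PIGinH11, a log2 ratio of ductal-like over acinar-like nuclei of −1.25 ± 0.14 (SD over the 2 libraries, n = 2). The endocrine-like class gave 144.8 CPM in WT and 126.9 CPM in PIGinH11, a log2 ratio over acinar-like nuclei of −0.01 ± 0.13 (SD, n = 2). The interval of this ratio included 0 in WT (−0.33 to 0.12) and in PIGinH11 (−0.18 to 0.34). In the non-epithelial classes, HNF4A was at 13.3 CPM in WT and 17.1 CPM in PIGinH11. The acinar-like level was 11.7-fold above this in WT and 7.01-fold in PIGinH11.

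Among the islet types, HNF4A was at 157 CPM in WT and 212 CPM in PIGinH11 alpha-like nuclei and at 119.1 and 117 CPM in beta-like nuclei. Gamma-like nuclei gave 162 CPM from 6 UMIs in WT and 89.2 CPM from 8 UMIs in PIGinH11. Delta-like nuclei gave 235 CPM from 20 UMIs in WT and 38.8 CPM from 6 UMIs in PIGinH11. In WT, the order of the levels was delta-like, gamma-like, alpha-like, acinar-like, beta-like, ductal-like and non-epithelial, and the intervals of the first 4 overlapped. The WT beta-like level was below the acinar-like one, by a log2 ratio of −0.38 (−0.73 to −0.05). In PIGinH11, alpha-like nuclei came first, 1.78-fold above acinar-like nuclei (log2 0.83, 0.43 to 1.20), and acinar-like, beta-like and gamma-like nuclei followed with overlapping intervals. The PIGinH11 delta-like level came after the ductal-like one and overlapped with the non-epithelial level.

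HNF4G, the second HNF4 receptor, known from gut and kidney epithelium, was highest in acinar-like nuclei in both libraries. The acinar-like level was 323 CPM in WT (317 to 329.97, from 9789 UMIs) and 238 CPM in PIGinH11 (230.2 to 246, from 3705 UMIs). Ductal-like nuclei held 171 CPM in WT and 191 CPM in PIGinH11, and endocrine-like nuclei 129.1 and 128.8 CPM. The acinar-like level exceeded the ductal-like one 1.90-fold in WT and 1.24-fold in PIGinH11. It exceeded the endocrine-like one 2.51-fold in WT and 1.85-fold in PIGinH11. Over the libraries, the log2 ratio to acinar-like nuclei was −0.62 ± 0.43 in ductal-like and −1.11 ± 0.31 in endocrine-like nuclei (SD, n = 2). The endocrine-like ratio did not keep its sign when only nuclei with fewer than 1300 UMIs were used, where it was 0.10. The non-epithelial level was 33.0 CPM in WT and 51.2 CPM in PIGinH11.

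Of the islet types, delta-like nuclei had an HNF4G level near that of acinar-like nuclei in both libraries, and gamma-like nuclei in PIGinH11. Delta-like nuclei held 247 CPM in WT and 219.8 CPM in PIGinH11, and their intervals reached those of acinar-like nuclei in both libraries. Beta-like nuclei held 95.3 and 105 CPM, below the acinar-like level by 3.40-fold in WT and 2.27-fold in PIGinH11. Alpha-like nuclei held 147 CPM in WT and 60.2 CPM in PIGinH11, and the latter could not be told from the non-epithelial level (log2 ratio 0.23, −0.59 to 0.97). Gamma-like nuclei gave 108 CPM from 4 UMIs in WT and 234 CPM from 21 UMIs in PIGinH11.

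ONECUT1, the cut-homeodomain factor of duct and liver development, was the one member of the 4 with a higher ductal-like than acinar-like level. Its level in ductal-like nuclei was 1065 CPM in WT (1043 to 1087, from 9147 UMIs) and 679 CPM in PIGinH11 (652 to 708, from 2254 UMIs). Acinar-like nuclei held 259 CPM in WT (253 to 265, from 7839 UMIs) and 99.1 CPM in PIGinH11 (94.2 to 104.2, from 1544 UMIs). The ductal-like level was therefore 4.11-fold the acinar-like one in WT and 6.85-fold in PIGinH11, a log2 ratio of 2.41 ± 0.52 (SD, n = 2). Of the WT ductal-like nuclei, 88.2% (86.7 to 89.5, Clopper–Pearson interval) held at least 1 ONECUT1 UMI and 1577 of 2148 held at least 2. In PIGinH11, where ductal-like nuclei had a median of 1028 UMIs against 3412 in WT, the share was 51.2% (49.1 to 53.4). The UMIs of ONECUT1 lay in ductal-like nuclei for 53.2% in WT and 57.2% in PIGinH11, although most nuclei were acinar-like. For HNF4A, HNF4G and FOXA2, between 79.3% and 85.2% of the UMIs of a library lay in acinar-like nuclei.

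The islet nuclei had no ONECUT1 above the non-epithelial level. Over the alpha-like, beta-like, delta-like and gamma-like nuclei together, the level was 28.5 CPM from 30 UMIs in WT and 22.6 CPM from 21 UMIs in PIGinH11, below the 56.6 and 39.8 CPM of the non-epithelial classes. The log2 ratio of islet over non-epithelial nuclei was −0.99 in WT (−1.61 to −0.41) and −0.81 in PIGinH11 (−1.57 to −0.12). No ONECUT1 UMI was found in the 7 WT gamma-like nuclei, which allows a level of up to 99.6 CPM. The endocrine-like nuclei that acinar markers matched best held 94.0 CPM in WT and 97.6 CPM in PIGinH11. The non-epithelial level itself was uneven in WT, where Schwann-like nuclei held 187 CPM, with 29 UMIs in 6 of 47 nuclei, and endothelial-like nuclei 38.3 CPM.

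FOXA2, the forkhead factor of foregut endoderm, had the fewest UMIs of the 4. Acinar-like nuclei held 30.6 CPM in WT (28.6 to 32.6, from 925 UMIs) and 25.9 CPM in PIGinH11 (23.4 to 28.5, from 403 UMIs). Ductal-like nuclei held 14.3 CPM in WT and 13.9 CPM in PIGinH11, and the acinar-like level exceeded these 2.14-fold and 1.87-fold. The log2 ratio of ductal-like over acinar-like nuclei was −0.997 ± 0.137 (SD, n = 2). Endocrine-like nuclei held 29.6 CPM in WT and 35.5 CPM in PIGinH11, a log2 ratio over acinar-like nuclei of 0.21 ± 0.35 (SD, n = 2). The interval of this ratio included 0 in WT (−0.58 to 0.45) and in PIGinH11 (−0.07 to 0.94). The non-epithelial level was 5.14 CPM in WT and 9.18 CPM in PIGinH11. The PIGinH11 ductal-like level was above it by a log2 ratio of 0.59, with an interval from −0.18 to 1.41 that included 0.

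Within the islet, beta-like nuclei held FOXA2 at 31.8 CPM from 20 UMIs in WT and 34.9 CPM from 14 UMIs in PIGinH11. Alpha-like nuclei held 13.4 CPM from 4 UMIs and 42.5 CPM from 12 UMIs. Delta-like nuclei gave 35.2 and 38.8 CPM from 3 and 6 UMIs, and gamma-like nuclei 54.0 and 55.7 CPM from 2 and 5 UMIs. Each of these types had an interval that overlapped with those of the other types and of acinar-like nuclei. Summed over the islet types, the PIGinH11 level stood above the acinar-like one by a log2 ratio of 0.62 (0.10 to 1.11). In WT the same ratio was −0.15 (−0.73 to 0.38).

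**Figure D1:**
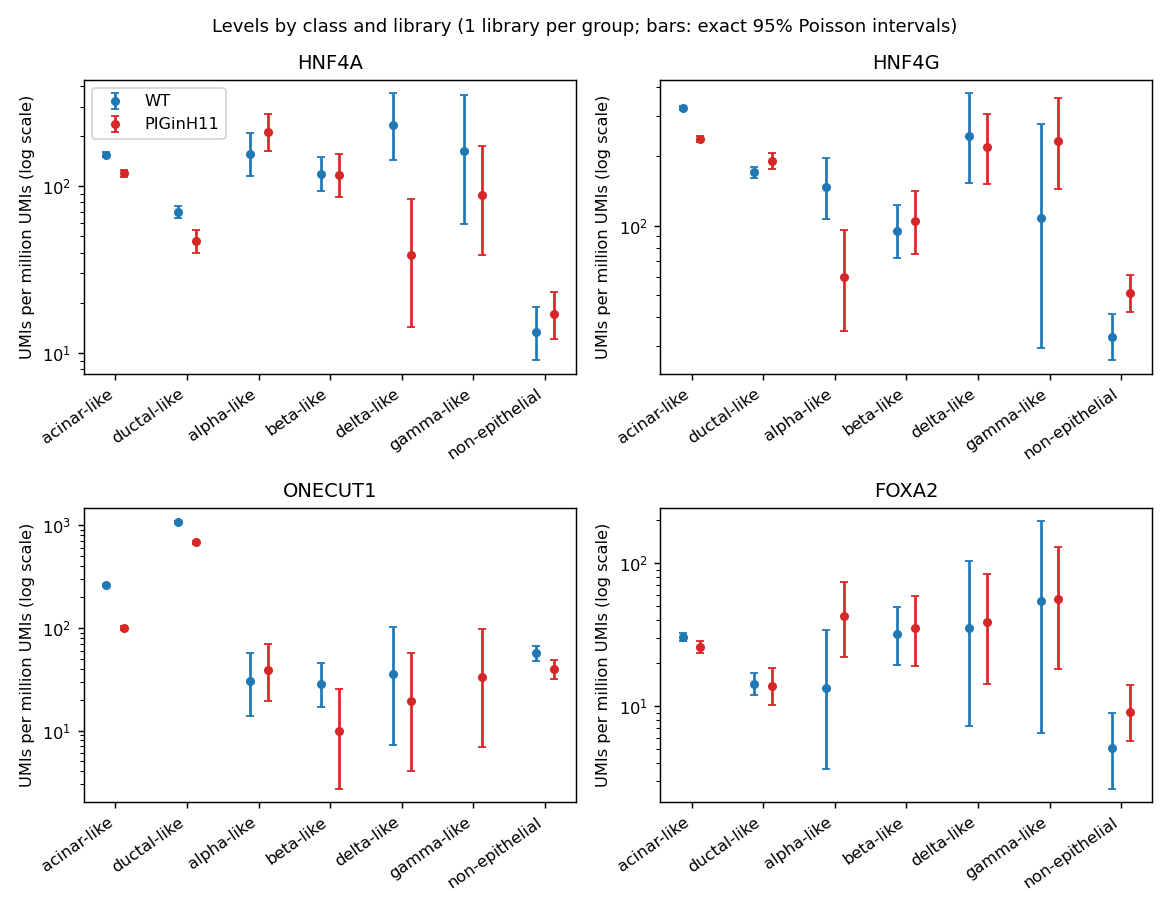
Level of each gene in CPM (log axis, with a range of its own in each panel) by class for the WT library (blue) and the PIGinH11 library (red), where points are the summed level of 1 library and bars exact 95% Poisson intervals. ONECUT1 stands highest in ductal-like nuclei and at or below the non-epithelial level in the islet types, whereas HNF4A, HNF4G and FOXA2 stand above the non-epithelial level in acinar-like nuclei. WT gamma-like nuclei, with 0 ONECUT1 UMIs, have no point.

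To compare shares of nuclei at 1 depth, the share expected to hold a UMI when each nucleus is thinned to 500 UMIs was computed, and no nucleus had fewer than that. At this depth, ONECUT1 was expected in 40.2% of WT and 27.8% of PIGinH11 ductal-like nuclei, and its acinar-like share was 12.2% in WT and 5.14% in PIGinH11. The non-epithelial shares were 2.15% and 2.39%, and the named islet types stood at 1.57% and 1.87%. For HNF4A, the share of acinar-like nuclei was 7.05% in WT and 5.29% in PIGinH11, that of ductal-like nuclei 3.19% and 2.29%, and that of the named islet types 7.11% and 6.13%, against a non-epithelial 0.545% and 1.38%. For HNF4G, the acinar-like share was 13.4% and 10.2% and the ductal-like share 7.60% and 8.33%, against a non-epithelial 1.36% and 3.40%. FOXA2 stayed at or under 2.37% in each of these groups of nuclei. Without thinning, HNF4A was seen in 34.2% of WT and 15.5% of PIGinH11 acinar-like nuclei, HNF4G in 49.5% and 25.9%, ONECUT1 in 45.7% and 13.4%, and FOXA2 in 9.61% and 4.00%, at median depths of 2848 and 1198 UMIs.

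**Figure D2:**
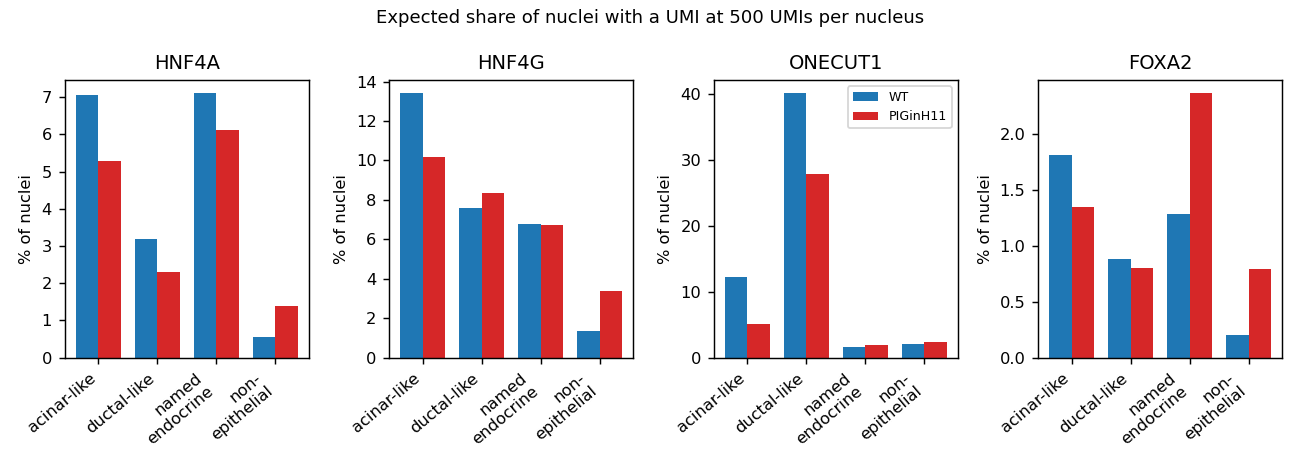
Expected share of nuclei (%) with a UMI of each gene when every nucleus is thinned to 500 UMIs, for WT (blue) and PIGinH11 (red), with a y axis of its own in each panel that starts at 0. Bars for ONECUT1 reach 40.2% and 27.8% in ductal-like nuclei and are near the non-epithelial bars in the named endocrine types.

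The comparison of the PIGinH11 with the WT pig asks how the transgenes, under the same diet, go with gene expression in each cell class. Here it compares 2 libraries. Of the 4 genes, ONECUT1 had the largest log2 ratio in size in acinar-like nuclei, while its ductal-like interval lay within that of HNF4A. In acinar-like nuclei it was 2.61-fold lower in PIGinH11, a log2 ratio of −1.39 (−1.47 to −1.31), and in ductal-like nuclei 1.57-fold lower, a log2 ratio of −0.65 (−0.72 to −0.58). HNF4A was 1.30-fold lower in acinar-like nuclei (log2 −0.38, −0.45 to −0.30) and 1.495-fold lower in ductal-like nuclei (log2 −0.58, −0.84 to −0.32). HNF4G was 1.36-fold lower in acinar-like nuclei (log2 −0.44, −0.50 to −0.39). In ductal-like nuclei its log2 ratio was 0.17 (0.03 to 0.30), which was 0.016 relative to the median gene of the class and −0.14 once free RNA was subtracted. FOXA2 was 1.18-fold lower in acinar-like nuclei (log2 −0.24, −0.41 to −0.07), and its ductal-like ratio, −0.05 (−0.57 to 0.45), included 0. The median gene had a log2 ratio of 0.23 in acinar-like, 0.15 in ductal-like and 0.05 in endocrine-like nuclei. Relative to it, ONECUT1 stood at −1.61 in acinar-like and −0.80 in ductal-like nuclei. These medians are over 15764, 11172 and 6772 genes that passed a UMI minimum in each library. The medians set against gene lists below are over genes with at least 40 UMIs in both libraries together, and differ slightly.

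Against all genes with at least 40 UMIs in a class, 1 of the 4 members was at least 2-fold lower in PIGinH11 acinar-like nuclei, namely ONECUT1, while 2.94% of 16719 genes were. None was at least 2-fold higher there, where 17.9% of genes were. In ductal-like nuclei, 0 of 4 were 2-fold lower, against 3.18% of 12641 genes, and 0 of 4 were 2-fold higher, against 12.2%. In endocrine-like nuclei, 0 of 4 passed in either direction, against 2.56% of 7426 genes lower and 5.33% higher. In acinar-like nuclei, 234 of the 16719 genes (1.40%) had a lower ratio than ONECUT1, and the shares below HNF4G, HNF4A and FOXA2 were 11.2%, 13.7% and 19.9%. In ductal-like nuclei, 7.69% of genes lay below ONECUT1, 8.98% below HNF4A, 36.0% below FOXA2 and 52.5% below HNF4G. The median log2 ratio of the 4 members was −0.41 in acinar-like, −0.31 in ductal-like and −0.03 in endocrine-like nuclei.

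**Figure D3:**
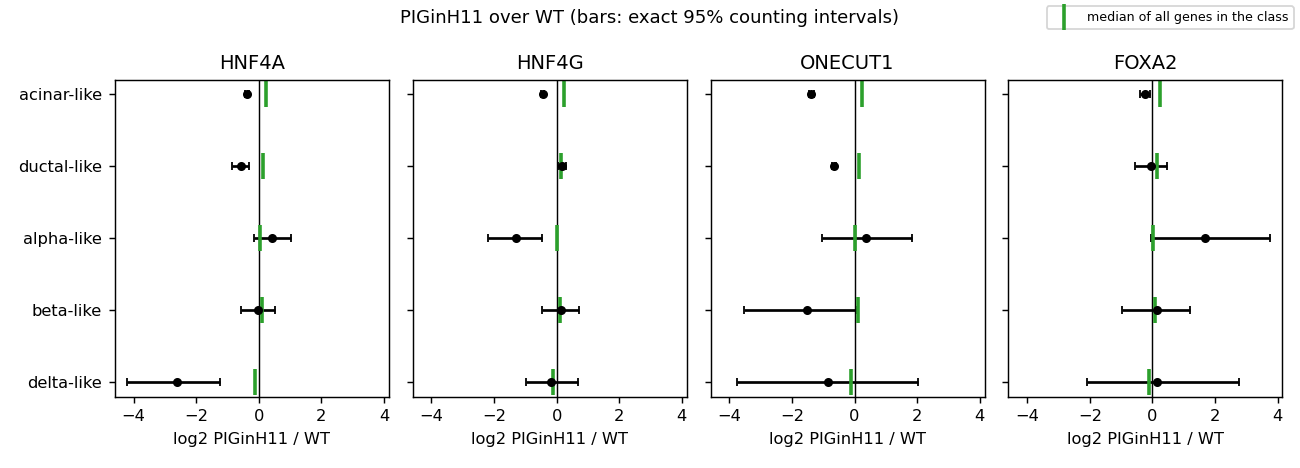
Log2 ratio of the PIGinH11 over the WT level of each gene (points, bars are exact 95% counting intervals) by class, with the median of all genes of the class in green and 0 as a black line. ONECUT1 lies at −1.39 in acinar-like and −0.65 in ductal-like nuclei, and the bars of the islet types are wider than those of the exocrine classes.

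Depth, free RNA and the mix of nuclei differed between the libraries too, and their part in these ratios was not tested beyond the following values. PRSS2, the trypsinogen gene used as a measure of free RNA, was at 23364 CPM in WT and 2074 CPM in PIGinH11 non-epithelial nuclei. Of 7 such digestive enzyme genes, 3 were at least 2-fold lower and 1, the lipase gene PNLIP, higher in PIGinH11 acinar-like nuclei, where 2.94% and 17.9% of all genes were, while 6 were lower in ductal-like and 5 in endocrine-like nuclei, against 3.18% and 2.56% of all genes. The non-epithelial level of ONECUT1 was lower in PIGinH11, by a log2 ratio of −0.51 (−0.91 to −0.11), while that of HNF4G was higher, by 0.63 (0.21 to 1.07). In the cluster without a class, ONECUT1 was at 32.3 CPM from 42 UMIs in WT and 100.3 CPM from 14 UMIs in PIGinH11. With each nucleus weighted equally, which is also the value expected after thinning, the acinar-like ratio of ONECUT1 was −1.30, and with free RNA subtracted it was −1.87. Among nuclei with fewer than 1300 UMIs alone, the acinar-like ratio of ONECUT1 was −1.29, that of HNF4A −0.20, that of HNF4G −0.14 and that of FOXA2 −0.99, and the ductal-like ratio of HNF4A was −0.15. With free RNA subtracted, the ductal-like ratio of HNF4A was −1.18, that of FOXA2 −2.01 and that of ONECUT1 −0.69. The FOXA2 value rests on a small remainder. PIGinH11 ductal-like nuclei held 0.021 FOXA2 UMIs per nucleus, against 0.017 in the non-epithelial nuclei that were subtracted. In acinar-like nuclei, the 10 ductal markers summed to 630 CPM in WT and 769 CPM in PIGinH11. In ductal-like nuclei, the 8 acinar markers summed to 707 CPM in WT and 1272 CPM in PIGinH11, and their own ductal markers to 40750 and 33141 CPM.

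The exocrine classes were made of several clusters, and ONECUT1 was lower in PIGinH11 in each of those with at least 20 nuclei per library. Over acinar-like clusters 1, 2, 3, 5 and 7, its WT level ran from 149 CPM in cluster 7 to 293 CPM in cluster 3 and its PIGinH11 level from 68.3 CPM in cluster 7 to 117 CPM in cluster 3. The log2 ratios ran from −1.63 (−1.75 to −1.52) in cluster 1 to −1.12 (−1.62 to −0.66) in cluster 7. Over ductal-like clusters 4, 6 and 14, the WT level was between 1005 and 1073 CPM, and the log2 ratios were −0.66, −0.62 and −0.38. The lowest WT and the lowest PIGinH11 level of the ductal-like clusters, 1005 and 656 CPM, were both in cluster 6, the shallowest of them, with a median of 1473 and 706 UMIs.

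HNF4A was lower in PIGinH11 acinar-like clusters 1, 2, 3 and 5, with log2 ratios between −0.67 (cluster 3) and −0.28 (cluster 2), while cluster 7 gave 0.14 (−0.25 to 0.51). HNF4G behaved alike in clusters 1, 2, 3 and 5, with log2 ratios between −0.50 and −0.43, but was higher in cluster 7, at 190.2 CPM in WT and 239 CPM in PIGinH11 (log2 0.33, 0.046 to 0.61). Cluster 7 was deep in WT, with a median of 5833 UMIs in its 307 nuclei, against 1291 UMIs in 348 PIGinH11 nuclei. Among the ductal-like clusters, cluster 14, led by KRT7, BICC1 and LGR5 beside SCTR, held more HNF4A than the others. Its HNF4A level was 145 CPM in WT and 116 CPM in PIGinH11, against 67.7 and 44.0 CPM in cluster 4. FOXA2 was highest in acinar-like clusters 2 and 3 in WT, at 44.2 and 45.0 CPM, and lowest in ductal-like cluster 4, at 12.2 CPM. In ductal-like cluster 14, FOXA2 was higher in PIGinH11, with 10 UMIs in WT and 9 in PIGinH11 and a log2 ratio of 1.81 (0.33 to 3.26), while every other exocrine cluster in which its interval excluded 0 (clusters 1 and 3) gave a lower level.

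**Figure D4:**
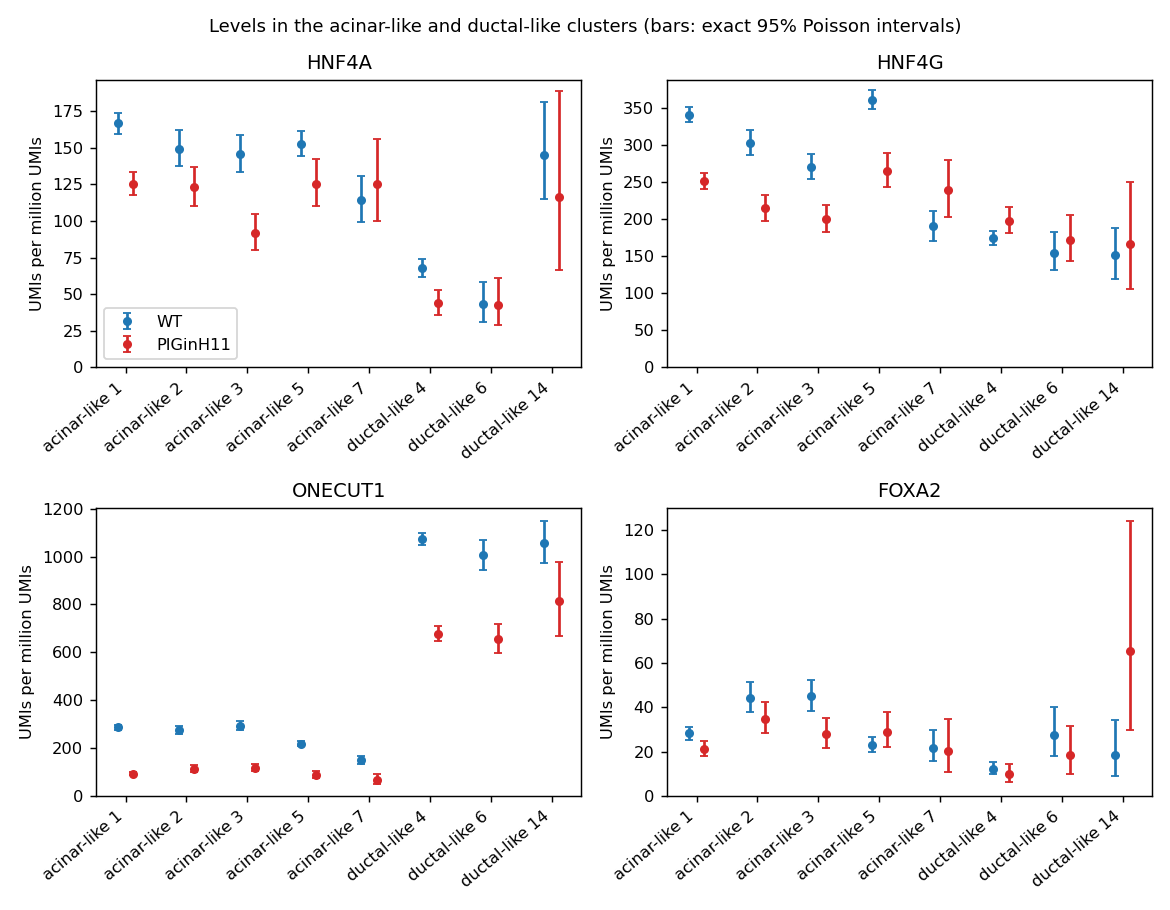
Level of each gene in CPM (linear axes from 0) in the 5 acinar-like and 3 ductal-like clusters with at least 20 nuclei in each library, for WT (blue) and PIGinH11 (red), with exact 95% Poisson intervals. ONECUT1 is lower in PIGinH11 in each of the 8 clusters, while HNF4A and HNF4G are lower in acinar-like clusters 1, 2, 3 and 5 and not in cluster 7.

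In the islet types, the UMI sums were small and most ratios could not be told from 0. HNF4G was 2.45-fold lower in PIGinH11 alpha-like nuclei, with 44 UMIs in WT and 17 in PIGinH11 and a log2 ratio of −1.29 (−2.19 to −0.45), while 3.82% of 2957 genes were at least 2-fold lower and 4.06% at least 2-fold higher in these nuclei. The acinar markers summed there to 1576 CPM in WT and 2325 CPM in PIGinH11. HNF4A was lower in PIGinH11 delta-like nuclei, with a log2 ratio of −2.60 (−4.20 to −1.23) from the 26 UMIs given above, fewer than the 40 asked of genes in the count over all genes, where 4.65% were lower and 8.63% higher. The HNF4A UMIs lay in 10 of 29 WT and 6 of 65 PIGinH11 delta-like nuclei. These shares, 34.5% (17.9 to 54.3) and 9.23% (3.46 to 19.0), had overlapping intervals, at median depths of 2679 and 1578 UMIs. In delta-like nuclei, the acinar markers summed to 1679 CPM in WT and 3678 CPM in PIGinH11. Of the other members in alpha-like, beta-like and delta-like nuclei, the intervals of every log2 ratio included 0, among them FOXA2 in alpha-like nuclei at 1.67 (−0.06 to 3.75) and ONECUT1 in beta-like nuclei at −1.52 (−3.54 to 0.08). For HNF4A and HNF4G in beta-like nuclei the log2 ratios were −0.02 (−0.58 to 0.52) and 0.14 (−0.47 to 0.73), so a 2-fold lower level lay outside both intervals. Among genes with at least 40 UMIs in beta-like nuclei, 4.06% were 2-fold lower and 4.49% higher. In gamma-like nuclei, where 6.36% of such genes were lower and 12.0% higher, no member reached 40 UMIs.

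Paralogues of ONECUT1 and FOXA2 were read in the same way. FOXA3, the third FOXA paralogue, was at 17.5 and 10.0 CPM in acinar-like and 4.89 and 3.92 CPM in ductal-like nuclei, with an acinar-like log2 ratio of PIGinH11 over WT of −0.80 (−1.07 to −0.54). ONECUT2, the paralogue of ONECUT1, was at 1.22 and 2.76 CPM in acinar-like and 5.70 and 9.64 CPM in ductal-like nuclei. Its acinar-like ratio was 1.17 (0.51 to 1.85) and its ductal-like ratio 0.76 (0.07 to 1.43), both opposite in sign to those of ONECUT1. The non-epithelial level of ONECUT2 was 0 CPM in WT and 3.50 CPM from 8 UMIs in PIGinH11. The PIGinH11 acinar-like level lay below this and could not be told from background. FOXA1 had 4 UMIs in WT and 11 in PIGinH11 acinar-like nuclei, and ONECUT3 4 and 6. Of these 4 paralogues, 2 had at least 40 UMIs in acinar-like nuclei, of which 1, ONECUT2, was at least 2-fold higher in PIGinH11 and 0 lower, against 17.9% and 2.94% of all genes.

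Of 8 pancreatic transcription factors that work with this family, 1 was at least 2-fold lower and 0 higher in PIGinH11 acinar-like nuclei, against 2.94% and 17.9% of all genes, with a median log2 ratio of 0.14 against 0.23. SOX9, the ductal and progenitor factor, was the lower one, with a log2 ratio of −1.24 (−2.28 to −0.32) from 55 and 12 UMIs, followed by GLIS3, a zinc finger factor of duct and beta cells, at −0.94 (−1.01 to −0.87). The acinar-like levels of both lay below the non-epithelial ones. SOX9 was at 1.82 and 0.770 CPM against 5.14 and 2.19 CPM and could not be told from background. GLIS3 was at 267 CPM in WT and 139 CPM in PIGinH11 against 438 and 312 CPM. In WT, alpha-like, delta-like and gamma-like nuclei held less GLIS3 than acinar-like nuclei, at 66.9, 82.2 and 134.9 CPM. WT beta-like nuclei held more, at 1530.5 CPM. In PIGinH11, alpha-like, delta-like and gamma-like nuclei held 120, 155 and 111 CPM, near the acinar-like level, and beta-like nuclei 1169 CPM. The part of free RNA in the acinar-like GLIS3 level was not tested. The highest were PTF1A, the acinar lineage factor, at 0.59 (0.38 to 0.79) and PROX1 at 0.40 (0.25 to 0.56). In ductal-like nuclei, SOX9 was at 35.7 CPM in WT and 10.5 CPM in PIGinH11, a log2 ratio of −1.76 (−2.31 to −1.25), and was the only one of 7 past 2-fold, where 3.18% of all genes were lower and 12.2% higher. PROX1 followed at −0.89 (−1.02 to −0.76), and PDX1 was the highest at 0.59 (0.32 to 0.85), followed by NR5A2 at 0.18 (0.12 to 0.24). In endocrine-like nuclei, NR5A2, a nuclear receptor of acinar cells, was the only one of 6 past 2-fold, against 5.33% of all genes higher, at 45.3 CPM in WT and 133 CPM in PIGinH11 (log2 1.56, 1.09 to 2.04), where the share of endocrine-like nuclei matched by acinar markers was higher too. Its non-epithelial level was 144.9 CPM in WT and 229.6 CPM in PIGinH11. The alpha-like level was 26.8 and 110 CPM, the beta-like 33.3 and 39.9 CPM, the delta-like 35.2 and 90.5 CPM and the gamma-like 27.0 and 111 CPM. Each of these lay below the level of the whole endocrine-like class, so the endocrine-like nuclei without a type held more. The NR5A2 level of the nuclei without a type was not taken separately. GATA6 followed NR5A2 at 0.36 (−0.02 to 0.75), and the lowest were GLIS3 at −0.80 (−0.95 to −0.65) and PROX1 at −0.33 (−0.79 to 0.12). Beta-like nuclei, a smaller share of the PIGinH11 endocrine-like class, held GLIS3 at 1530.5 CPM in WT and 1169 CPM in PIGinH11. Alpha-like nuclei held it at 66.9 and 120 CPM, and the part of the mix of types in the endocrine-like ratio was not tested.

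The ductal-like over acinar-like ratio kept its sign between the libraries for each of these factors with at least 40 UMIs other than GATA6, at 0.17 (0.11 to 0.23) in WT and −0.75 (−0.86 to −0.64) in PIGinH11, while the order of the ductal-like factors was not the same. Its log2 value was 4.30 in WT and 3.78 in PIGinH11 for SOX9, 3.73 and 4.55 for GLIS3, 3.57 and 2.28 for PROX1, 1.62 and 2.42 for PDX1, and 2.04 (2.00 to 2.08) and 2.78 (2.68 to 2.87) for ONECUT1. On the acinar side stood PTF1A at −3.42 and −3.05 and GATA4 at −3.19 and −3.34, with HNF4A at −1.15 and −1.36, FOXA2 at −1.09 and −0.90 and HNF4G at −0.92 and −0.31 nearer to 0. The ductal-like levels of PTF1A and GATA4 lay below their non-epithelial levels in both libraries, as did the acinar-like levels of SOX9 and GLIS3. The part of free RNA in the size and order of these ratios was not tested. NR5A2 was at 0.05 and 0.04. The ratio of ONECUT1 was the wider one in PIGinH11, where its acinar-like level was lower than in WT by a larger factor than its ductal-like level.

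**Figure D5:**
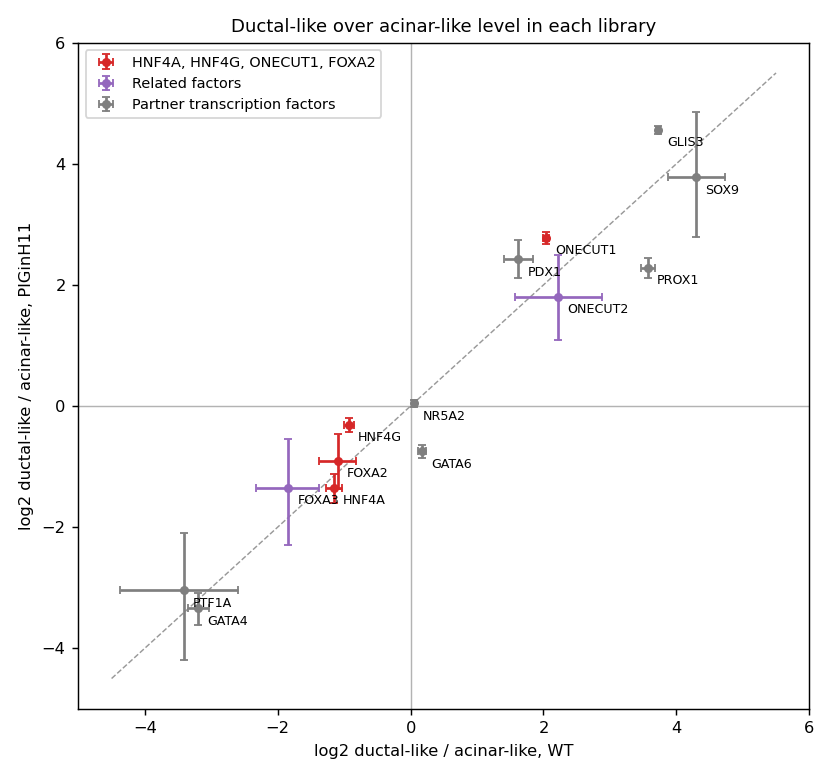
Log2 ratio of the ductal-like over the acinar-like level in WT (x axis) and in PIGinH11 (y axis) for HNF4A, HNF4G, ONECUT1 and FOXA2 (red), their paralogues (purple, "Related factors") and partner transcription factors (grey) with at least 40 UMIs over both classes in each library, with exact 95% counting intervals and a dashed line of equal values. ONECUT1 lies on the ductal side at 2.04 and 2.78, and HNF4A, HNF4G and FOXA2 lie on the acinar side. For PTF1A, GATA4, SOX9 and GLIS3, the level in the class with less of the gene was below the non-epithelial level.

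HNF4 proteins act with coactivators and share binding sites with other nuclear receptors. Of 10 such genes, 9 had at least 40 UMIs in acinar-like, 8 in ductal-like and 7 in endocrine-like nuclei. In each of these classes 0 passed 2-fold in either direction. Of all genes, 2.94% were lower and 17.9% higher in acinar-like, 3.18% and 12.2% in ductal-like, and 2.56% and 5.33% in endocrine-like nuclei. With so few genes, a count of 0 lower is near these shares. In acinar-like nuclei, the retinoid receptor RXRA stood highest at a log2 ratio of 0.71 (0.52 to 0.90), followed by the fatty acid receptor PPARA at 0.49 (0.44 to 0.55), and NR0B2, a repressor of HNF4A, lowest at −0.68 (−1.05 to −0.33), followed by NCOA2 at −0.10. The acinar-like level of RXRA, 16.5 CPM in WT and 27.0 CPM in PIGinH11, was near the non-epithelial 21.0 and 24.5 CPM. In ductal-like nuclei, RXRA was at 0.27 (−0.27 to 0.79), NCOA1 at 0.06, and the acetyltransferases EP300 and CREBBP at −0.36 and −0.35. In endocrine-like nuclei, the ends of the list were PPARA at 0.17 and CREBBP at 0.14, and PPARGC1A at −0.44 and NCOA2 at −0.05, each with an interval that included 0.

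Of 17 symbols of genes that HNF4A is known to bind in liver or islets, 16 had a row, and 8 reached 40 UMIs in acinar-like nuclei. CREB3L3, a transcription factor of lipid metabolism, was at 0.892 CPM from 27 UMIs in WT and 9.05 CPM from 141 UMIs in PIGinH11 (log2 3.34, 2.74 to 3.99). It was the only one past 2-fold, where 17.9% of all genes were higher. Its non-epithelial level was higher in PIGinH11 too, at 0.429 CPM in WT and 3.06 CPM in PIGinH11. The apolipoprotein gene APOA1 followed at 0.54 (−0.19 to 1.26). Its acinar-like level, 1.32 CPM in WT and 1.93 CPM in PIGinH11, lay below the non-epithelial one and could not be told from background. SERPINA1, the gene of a serine protease inhibitor, was the lowest at −0.16 (−0.32 to −0.0080), followed by TTR at 0.082. The median log2 ratio of the 8 was 0.32 against 0.23 for all genes. In ductal-like nuclei, 0 of 5 passed 2-fold, where 3.18% of all genes were lower and 12.2% higher. The ends there were TTR at 0.87 (0.13 to 1.59), APOA1 at 0.70, FBP1 at 0.10 and SERPINA1 at −0.16. The ductal-like level of TTR, 4.77 and 8.74 CPM, was near the non-epithelial 4.29 and 8.31 CPM. That of APOA1, 4.07 and 6.63 CPM, was below the non-epithelial 61.3 and 29.7 CPM, so neither could be told from background. In endocrine-like nuclei, 1 of 3 was lower, against 2.56% of all genes, namely SLC2A2, the beta cell glucose transporter, at −1.03 (−1.22 to −0.83), and the others were TTR at −0.48 and SERPINA1 at 0.80. In beta-like nuclei alone, which made up a smaller share of the PIGinH11 endocrine-like class, SLC2A2 was at 1065 CPM in WT and 765 CPM in PIGinH11. TTR was at 662 and 695 CPM in these nuclei.

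A further list held 9 symbols of genes of the cilium and of tubular epithelium, some of them known as ONECUT1 targets, of which 7 had a row. In acinar-like nuclei, 2 of the 7 were at least 2-fold higher in PIGinH11 and 0 lower, DPP4 at a log2 ratio of 1.41 (0.87 to 1.96) and BICC1, an RNA-binding protein linked to cystic kidney, at 1.05 (0.90 to 1.20), while 17.9% of all genes were higher. Both lay below their non-epithelial levels, DPP4 at 1.69 and 4.49 CPM against 69.0 and 81.3 CPM and BICC1 at 24.2 and 49.9 CPM against 740.1 and 526 CPM. Neither could be told from background. KIF12 was the lowest at −0.65 (−0.86 to −0.45), followed by CYS1 at −0.13. In ductal-like nuclei, DPP4 at 1.72 (1.07 to 2.38) and CYS1 at 1.03 (0.80 to 1.27) passed, where 12.2% of all genes did, although DPP4, at 4.31 and 14.2 CPM, was again below its non-epithelial level. In the same nuclei the lowest were PKHD1, the polycystic kidney gene of duct cilia, at −0.35 (−0.38 to −0.33) and PKD2 at 0.11. In endocrine-like nuclei, BICC1 was the only one of 6 past 2-fold, at 1.14 (0.80 to 1.49) and below its non-epithelial level too, where 5.33% of all genes were higher, followed by PKHD1 at 0.22, and the lowest were DPP4 at −0.20 and PKD2 at −0.10. The list had a median log2 ratio of 0.27 in acinar-like, 0.48 in ductal-like and 0.11 in endocrine-like nuclei, against 0.23, 0.13 and 0.06 for all genes.

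Of 6 genes known as FOXA2 targets, 5 had at least 40 UMIs in acinar-like, 3 in ductal-like and 4 in endocrine-like nuclei. Of these, ABCC8, the sulfonylurea receptor of islet cells, was the only one past 2-fold. Its log2 ratio was 1.09 (0.77 to 1.41) in acinar-like and 2.40 (1.71 to 3.12) in ductal-like nuclei, where 17.9% and 12.2% of all genes were higher. Its levels there, 5.19 and 11.0 CPM in acinar-like and 3.14 and 16.6 CPM in ductal-like nuclei, were near those of non-epithelial nuclei, 3.86 CPM in WT and 21.0 CPM in PIGinH11, and are read as background. The other ends of the list in acinar-like nuclei were IGFBP1 at 0.58, HADH at 0.31 and KCNJ11 at −0.39, and in ductal-like nuclei ALB at 0.55 and HADH at 0.029. In endocrine-like nuclei, 0 of 4 passed 2-fold, where 2.56% of all genes were lower and 5.33% higher. ABCC8 was there at 0.13 (0.04 to 0.22) and HADH at 0.10. The lowest were ALB at −0.998 (−1.80 to −0.24) and the potassium channel gene KCNJ11 at −0.34 (−0.81 to 0.12). ALB was at 41.0 CPM in WT and 20.5 CPM in PIGinH11 endocrine-like nuclei, against a non-epithelial 17.6 and 18.8 CPM, so its PIGinH11 level was near background. Its ductal-like level, 14.8 and 21.7 CPM, was near background too.

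Across 11 named classes in both libraries (22 points), the log2 levels of HNF4A went most closely with those of MAOB (Pearson r 0.89), RIIAD1 (0.85), ARFGEF3 (0.84), EPB41L4B (0.83) and MGST2 (0.83) among 10877 genes. HNF4G went with BAIAP2L1 (0.86), XKR6, RHPN2 and DSG2 (0.83 each) and MORC1 (0.82). The closest genes to ONECUT1 were JADE3 (0.92), VEPH1 (0.91), CLDN10 (0.91), a tight junction claudin, GRHL2 (0.90), an epithelial transcription factor, and WWOX (0.90). For FOXA2 they were GCNT4 (0.88), BCL11A (0.87), B4GALT6 (0.85), STXBP5L (0.85) and PGBD5 (0.84). Between the members, r was 0.72 for HNF4A and HNF4G, 0.76 for HNF4A and FOXA2 and 0.65 for HNF4G and FOXA2, but −0.13, 0.22 and −0.35 for ONECUT1 with HNF4A, HNF4G and FOXA2. The points of a library share its depth and its free RNA, so these values are a description.

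The members were also read together in single nuclei. In WT acinar-like nuclei thinned to 500 UMIs, HNF4A was found in 6.79% of the 1090 nuclei with HNF4G and in 6.79% of the nuclei without it. In WT ductal-like nuclei, HNF4G was found in 6.55% of the 885 nuclei with ONECUT1 and in 7.92% of those without. Without thinning, 139 of 8449 WT acinar-like nuclei (1.65%) held a UMI of all 4 genes and 22.6% of none, while in PIGinH11, at lower depth, 10 of 9118 held all 4 and 54.9% none. Of the nearest annotated genes on each side of the members, those with a row were R3HDML and TTPAL around HNF4A, FAM214A after ONECUT1 and THBD after FOXA2. The nearest genes before ONECUT1 and FOXA2 and on both sides of HNF4G had no row, and genes further away were not looked up. FAM214A, whose gene starts 35722 bp after ONECUT1 ends, was at 430 CPM in WT and 399.9 CPM in PIGinH11 acinar-like nuclei and at 399.5 and 461 CPM in ductal-like nuclei, without the ductal-like excess of ONECUT1.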

How the data were processed

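Single-nucleus RNA was measured in 1 WT and 1 PIGinH11 pancreas. The authors aligned reads to Sscrofa11.1 with Cell Ranger (v3.1.0 in the submitters' notes, v5.0.0 in the file headers) and deposited raw UMI counts per gene and barcode, before doublet removal and filters. The WT matrix held 55784067 UMIs in 13619 barcodes (median 3216) and the PIGinH11 matrix 26228811 in 14964 (median 1181.5). The deposited lists also name the genes and barcodes. Of 31908 genes, 15410 came without a symbol, and the reference table gave a symbol to 841.

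Nuclei were kept at 270 to 3700 genes, below 13000 UMIs and below 10% mitochondrial UMIs. The methods print a UMI limit of 1300, which was run as an alternative. Scrublet (scanpy v1.11.5) took the place of DoubletFinder and removed 1484 WT and 1791 PIGinH11 barcodes, the highest-scoring 0.8% for each 1000 barcodes. Clustering used 2000 variable genes per library, without 65 member and list genes, 60 ribosomal protein and 13 mitochondrial genes, then 30 principal components, Harmony in numpy, 20 neighbours and Louvain clustering at resolution 1 (igraph v0.11.9). A class name needed 3 markers. The UMIs of a gene were summed per class and library and scaled to the class total (CPM), and ratios are PIGinH11 over WT. Poisson, Clopper–Pearson and conditional binomial 95% intervals (scipy v1.17.1) were used. Free RNA was taken as the UMIs per nucleus in non-epithelial classes, which includes any RNA that those cells express themselves. Genes were called at 2-fold among those with at least 40 UMIs.

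The members and lists were chosen with earlier results of these data known. All members and related factors are named, and of each other list the 2 highest and 2 lowest ratios per class among genes with 40 UMIs. The genes most like a member are the 5 with the highest correlation of log2(CPM + 5) among genes with 200 UMIs. A few listed genes are not reported here. GGT1, and TMEM27 and G6PC as older names of CLTRN and G6PC1, had no row. No sequences are given. The ratio and its interval were tested on simulated Poisson sums with known changes, and the other steps were not. The alternatives are given in the closing section.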

Additional observations from a re-analysis of the deposited data

Results flagged for a closer look

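The PIGinH11 over WT log2 ratio of HNF4G was 0.17 in ductal-like nuclei, against −0.44 in acinar-like and −1.29 in alpha-like nuclei, with counting intervals on opposite sides of 0. The difference between these classes was not tested, since each group has 1 library. The ductal-like ratio was 0.016 relative to the median gene of its class, and −0.14 with free RNA subtracted.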

How the results depend on the processing

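No paired analysis was possible because each group has 1 library, and for the same reason no library could be left out. Leaving out nuclei with 1300 or more UMIs gave PIGinH11 over WT log2 ratios in acinar-like nuclei of −0.20 for HNF4A, −0.14 for HNF4G, −1.29 for ONECUT1 and −0.99 for FOXA2. In ductal-like nuclei it gave −0.15 for HNF4A, 0.59 for HNF4G and −0.45 for ONECUT1, and in endocrine-like nuclei −0.68 for HNF4G. Under it the endocrine-like over acinar-like ratio of HNF4G changed sign to 0.10, and that of ONECUT1 was −0.95. Median-of-ratios scaling gave acinar-like ratios of −0.60, −0.67, −1.61 and −0.47 in the same order of genes, ductal-like ratios of 0.016 for HNF4G and −0.80 for ONECUT1, and ductal-like over acinar-like ratios of −1.42 for HNF4A and −1.16 for FOXA2. Subtraction of free RNA gave acinar-like ratios of −0.49, −0.68, −1.87 and −0.69. It gave ductal-like ratios of −1.18 for HNF4A, −0.14 for HNF4G, which changed sign, and −2.01 for FOXA2, and ductal-like over acinar-like ratios of −1.64 for HNF4A and −2.06 for FOXA2. It left no ONECUT1 in endocrine-like nuclei of a library, so no ratio was taken there. The ductal-like FOXA2 values after subtraction rest in part on the small remainder in PIGinH11 ductal-like nuclei. Weighting each nucleus equally, which equals the value expected after thinning to 500 UMIs, gave acinar-like ratios of −1.30 for ONECUT1 and −0.42 for FOXA2, an endocrine-like ratio of 0.68 for ONECUT1, and endocrine-like over acinar-like ratios of 0.13 for HNF4A and −0.78 for HNF4G. Without doublet removal, the ductal-like ratio of ONECUT1 was −0.75, and ductal-like over acinar-like ratios were −1.05 for HNF4A and −0.68 for FOXA2. With a minimum of 100 UMIs, 6.31% of genes were at least 2-fold higher in ductal-like and 3.26% in endocrine-like nuclei. The causes were not tested. A gene minimum of 500 and, added after seeing the data, endocrine-like nuclei of a named type alone left all 32 and 8 values they recomputed within the counting interval or spread of the main value, as did resolution 2 for 31 of 32. In every alternative, ONECUT1 was lower in PIGinH11 acinar-like and ductal-like nuclei. In the islet types, the number of nuclei, 7 to 135 in a type and library, limits precision, with 0 to 75 UMIs of a member.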
